A study of Homo sapiens with 4 samples.

Results

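The BTB and Kelch receptors of CUL3 ligases were examined in DU145 cells depleted of DCUN1D1. A receptor was counted when a probe set of the array named it alone and its symbol was KLHL, KBTBD, KCTD or BTBD followed by a number, or was KEAP1, ENC1, SPOP or SPOPL. This gave 76 of the 19774 genes measured, with 168 of the 40914 probe sets that name 1 gene. There were 34 KLHL, 8 KBTBD, 18 KCTD and 12 BTBD genes beside the 4 named singly. The symbol rule takes genes by family name, and not every member has a proven ligase. DU145 is an established androgen-independent cell line from a metastasis of a human prostate carcinoma. RNA was measured on 4 arrays, 2 of cells carrying an shRNA against DCUN1D1 (shDCUN1D1, DU145-DCUN1D1-KD) and 2 of cells carrying an shRNA against GFP (shGFP, DU145-GFP), which served as the control. The sample records describe both groups as stably transduced with lentivirus, grown in DMEM for 16 h before RNA was taken, and biological duplicates. The methods instead describe RNA taken in the days after infection, following a change of medium, and this difference stays unsettled. The treatment record also names DMSO, with no dose or role. More than 1 shRNA against DCUN1D1 is named in the methods, and nothing in the records links an array to its shRNA.

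CUL3 is the scaffold of a family of cullin-RING ubiquitin ligases. Its BTB partners join what other cullins split between an adaptor and a receptor: the BTB domain binds CUL3 and a second domain, such as a Kelch propeller in KLHL and KBTBD proteins or a MATH domain in SPOP, holds the substrate. Attachment of NEDD8 to the cullin switches the ligase on, and DCUN1D1 is a co-E3 of that step. In prostate cancer, SPOP is known as a frequently mutated receptor, and KEAP1 is known in many tissues as the receptor that keeps the stress factor NRF2 low. The comparison of shDCUN1D1 with shGFP cells addresses which receptor mRNAs differ when the co-E3 is depleted.

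The targeted gene was not measured above background, so its values are no measure of the depth of the knockdown. The brightest probe set of DCUN1D1 read 1.60 and 1.45 in the shDCUN1D1 arrays, against 2.55 and 1.99 in the shGFP arrays, in log2 signal, each below the nonspecific control probes of its array that are described with the receptors' signal. The knockdown arrays lay below both control arrays, with a log2 fold change of -0.75 (SE 0.26). A fold change is given throughout as shDCUN1D1 minus shGFP on the log2 scale. It was said to be past the fold bound where the lower limit of the 90% interval of the fold exceeded 1.2, and the bound of DCUN1D1 was 1.16. Its log2 fold change was -0.47 without the first control array and -1.02, past the bound, without the second. Its 5 other probe sets lay between -0.47 and 0.12. The epithelial keratin KRT8 lay above the nonspecific controls in all 4 arrays (3.70 and 3.33 in shDCUN1D1, 3.25 and 3.73 in shGFP), while KRT19, EPCAM and CDH1 did not in any. KRT18 read 7.62 and 1.69 in the shDCUN1D1 arrays, against 1.68 and 1.63 in the shGFP arrays. The first knockdown array stood apart: 854 of all genes were over 2 log2 units above each other array there, against 0 in the second knockdown array and 0 and 5 in the control arrays. It correlated with the others at 0.665 to 0.760 over genes, where the remaining pairs correlated at 0.825 to 0.920. The second knockdown array correlated with the control arrays at 0.920 and 0.825, and with the first knockdown array at 0.760. The control arrays correlated with each other at 0.919, so the arrays did not group by shRNA.

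Most receptors were dim. Their mean log2 signal had a median of 1.94 and a highest value of 4.08, against a median of 1.92 over all genes. The array's nonspecific control probes with 20 G or C bases, which match no transcript, read 2.48 and 2.51 in the shDCUN1D1 arrays and 2.97 and 3.30 in the shGFP arrays. In 20 of the 23 nonspecific probe sets, both shDCUN1D1 values were lower than both shGFP values, with a median difference of -0.29. The number of receptors above the control of 20 G or C bases was 16 and 18 in the shDCUN1D1 arrays (21.1% and 23.7%). In the shGFP arrays, where that control read higher, it was 9 and 4 (11.8% and 5.26%). Over all genes the shares were 27.8% and 23.3% in shDCUN1D1 and 15.2% and 10.4% in shGFP. Of the 76 receptors, 52 (68.4%) were above that control in no array, against 64.5% of all genes. KCTD17, KCTD19 and BTBD7 were above it in all 4 arrays.

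Of the 76 receptors, ENC1 and KCTD20 were higher and KCTD17 and KCTD5 were lower in shDCUN1D1 cells past the fold bound. These 4 are 5.26% of the receptors. In RNA of a whole culture, fewer cells with a transcript and less of it per cell cannot be told apart. Over all genes, 1031 of 19774 (5.21%) were past the bound, with 311 higher (1.57%) and 720 lower (3.64%), so that the receptors' share was near the background. With limma and Benjamini-Hochberg adjustment, 0 of 19774 genes (0%) had an adjusted p under 0.05, and the smallest adjusted p of a receptor was 0.59. Before adjustment, limma gave p under 0.05 for 9 receptors (11.8%), against 8.39% of all genes. The methods name Student's t-test in general and not for the array calls. Run here on the arrays, it gave p under 0.05 for 4 receptors (5.26%), against 7.55% of all genes. With 2 arrays against 2, an exact two-sided permutation test cannot go below p = 0.333.

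The median log2 fold change of the 76 receptors was -0.01, as it was over all genes. There were 35 positive and 41 negative values, and 58 of the 76 (76.3%) lay within 0.5 of 0, against 74.1% of all genes. Both knockdown arrays lay above both control arrays for 14 receptors (18.4%, against 18.4% of all genes) and below them for 18 (23.7%, against 26.3%). By family the median was -0.05 for KLHL (range -0.83 to 1.45), 0.06 for KBTBD (-0.24 to 0.39), -0.03 for KCTD (-1.61 to 1.22), -0.09 for BTBD (-1.002 to 1.22) and 0.20 for the 4 genes named singly. Past the bound were 3 of the 18 KCTD genes, ENC1 among the 4 single genes, and 0 of the 34 KLHL, 8 KBTBD and 12 BTBD genes.

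**Figure D1:**
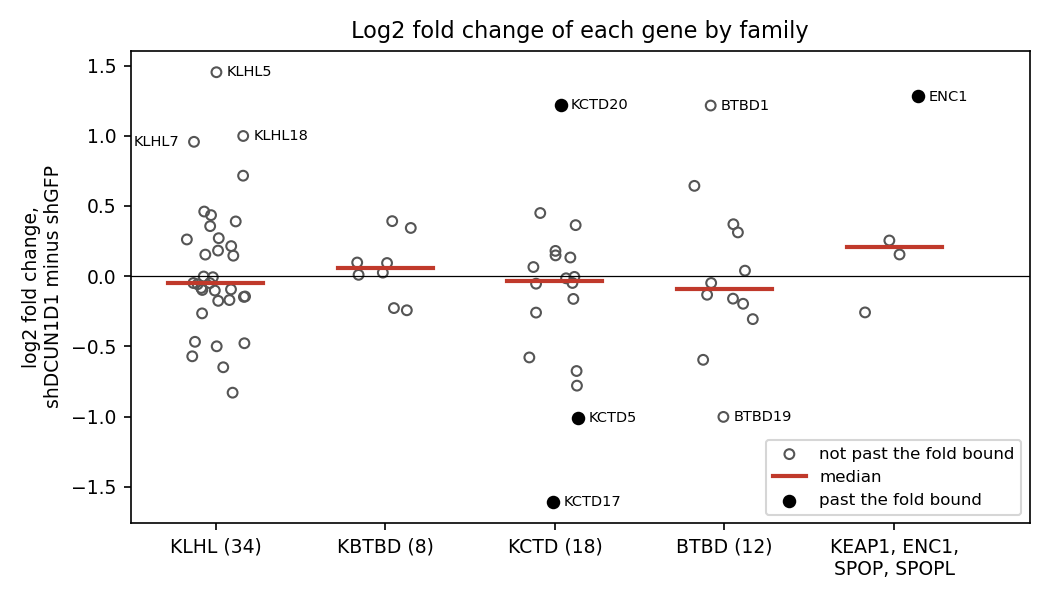
Log2 fold change (shDCUN1D1 minus shGFP) of the brightest probe set of each receptor, by family, with the number of genes in brackets and the family median in red. Filled points are past the fold bound: KCTD20 and ENC1 above 0, KCTD5 and KCTD17 below 0. The medians lie between -0.09 and 0.20.

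**Figure D2:**
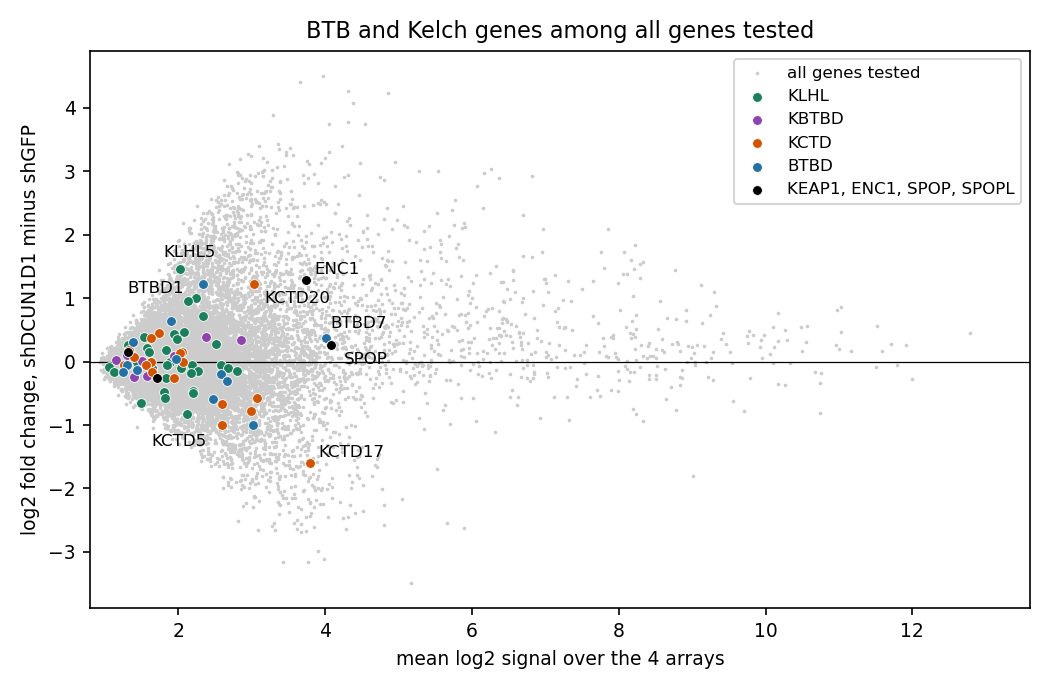
Log2 fold change (shDCUN1D1 minus shGFP) against mean log2 signal over the 4 arrays for all 19774 genes (grey) and the 76 receptors (coloured by family). The receptors have mean signals up to 4.08, with a median of 1.94, against 1.92 over all genes.

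ENC1, an actin-associated BTB-Kelch protein of the nervous system, had the highest bound of the receptors that were higher. It read 4.68 and 4.08 in the shDCUN1D1 arrays, against 3.19 and 3.01 in the shGFP arrays. Both knockdown arrays were above both controls by more than the spread within either group. The log2 fold change was 1.28 (SE 0.43, bound 1.32), or 243% of the shGFP signal. The second shGFP value lay below the nonspecific control of its array, so the fold is not exact. The second ENC1 probe set pointed the same way, at 1.98 and 1.47 in shDCUN1D1 and 1.42 and 1.21 in shGFP (0.41). ENC1 lies on chromosome 5 at 74627409 to 74640728 (GRCh38.p14, RefSeq). Its fold change was not past the bound without the first knockdown array (0.98), without the first control array (1.37) or without the second (1.19).

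KEAP1, the receptor of NRF2, was measured by 1 probe set. It read 1.89 and 1.26 in the shDCUN1D1 arrays, against 1.74 and 1.93 in the shGFP arrays, so the groups overlapped. The log2 fold change was -0.26 (SE 0.26), and it was 0.06 without the second knockdown array. All 4 values lay below those nonspecific control probes.

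SPOP recruits substrates such as the coactivator TRIM24 through its MATH domain, and SPOPL is its close paralogue. SPOP read 4.13 and 4.28 in the shDCUN1D1 arrays, against 4.71 and 3.19 in the shGFP arrays. The control arrays lay on either side of the knockdown arrays, and the log2 fold change was 0.25 (SE 0.64). It was 1.01 without the first control array and -0.51 without the second. SPOPL read 1.24 and 1.53 in shDCUN1D1 and 1.1996 and 1.27 in shGFP (0.15, SE 0.14), with overlapping groups at a low signal.

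KCTD20, which is related to BTBD10 and has been described as a regulator of AKT, was higher on 2 of its 3 probe sets. The brightest read 3.79 and 3.48 in the shDCUN1D1 arrays, against 2.92 and 1.91 in the shGFP arrays, a log2 fold change of 1.22 (SE 0.46, bound 1.22). The shGFP values lay below the nonspecific control of their arrays, and so give no exact fold. The next read 1.94 and 2.66 in shDCUN1D1 and 1.35 and 1.21 in shGFP (1.03), and was also past the bound when every probe set was tested. The last read 1.44 and 1.09 in shDCUN1D1 and 1.28 and 1.61 in shGFP (-0.18). The groups did not overlap on the first 2 and overlapped on the last. The mean over the 3 probe sets was 0.69 and past the bound. Without the first knockdown array the brightest probe set gave 1.06, and without the second control array 0.72, neither past the bound. BTBD10 read 1.66 and 1.40 in shDCUN1D1 and 1.10 and 1.34 in shGFP (0.31, SE 0.15), not past the bound.

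**Figure D3:**
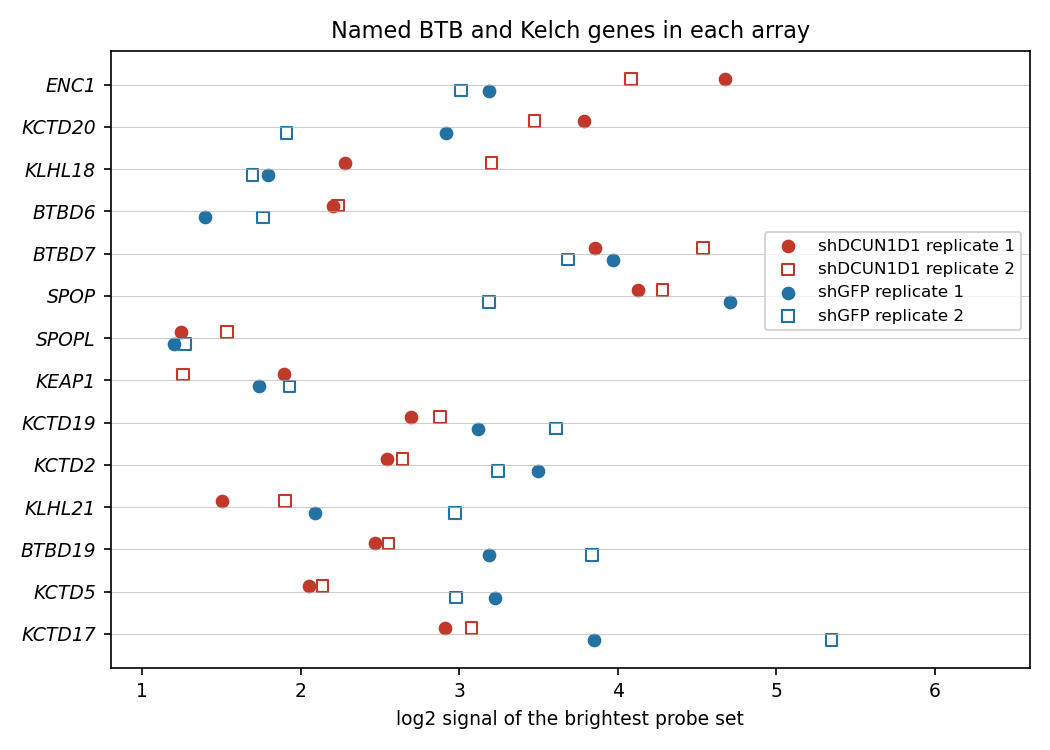
Log2 signal of the brightest probe set in each of the 4 arrays for 14 named receptors, ordered by log2 fold change (shDCUN1D1 in red, shGFP in blue; replicate 1 filled, replicate 2 open). The knockdown arrays lie right of both control arrays from ENC1 to BTBD6 and left of both from KCTD19 to KCTD17.

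KCTD2, KCTD5 and KCTD17 are closely related KCTD proteins, of which KCTD5 is known to bring CUL3 to the beta gamma subunits of G proteins. KCTD17 is known for the turnover of trichoplein, a step in the formation of cilia. KCTD5 and KCTD17 were lower in shDCUN1D1 cells past the fold bound, and KCTD2 lay lower without passing it. The median of the 3 was -1.01 on the brightest probe sets and -0.41 on the mean of each gene's probe sets.

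KCTD17 read 2.91 and 3.08 in the shDCUN1D1 arrays, against 3.85 and 5.35 in the shGFP arrays. Both knockdown arrays were below both controls, and the second control array stood well above the first. The log2 fold change was -1.61 (SE 0.62, bound 1.27), or 32.9% of the shGFP signal. It was -0.86 without the second control array, -1.52 without the first knockdown array and -1.69 without the second, in each case not past the bound. The other KCTD17 probe set read 2.22 and 2.77 in shDCUN1D1 and 2.11 and 2.30 in shGFP (0.29), with overlapping groups.

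KCTD5 read 2.06 and 2.14 in the shDCUN1D1 arrays, against 3.23 and 2.98 in the shGFP arrays. The groups were separated by far more than the spread within them. The log2 fold change was -1.01 (SE 0.27, bound 1.37). Of the 4 values, 1 (3.23) was above the nonspecific control of its array, so that neither group was measured above background. Its 2 other probe sets went the opposite way. They read 2.33 and 1.63 in shDCUN1D1 against 1.55 and 1.51 in shGFP (0.45), and 1.74 and 1.77 in shDCUN1D1 against 1.24 and 1.41 in shGFP (0.42). The mean over the 3 was -0.05. On the brightest probe set, the call was lost without the first knockdown array (-0.97) or the first control array (-0.88).

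KCTD2 read 2.54 and 2.64 in the shDCUN1D1 arrays, against 3.50 and 3.24 in the shGFP arrays (-0.78, SE 0.32, bound 1.10). Its other probe set read 1.63 and 1.48 in shDCUN1D1 and 1.56 and 1.63 in shGFP (-0.04). The separation of the groups was thus seen on 1 of the 2 probe sets. The nonspecific controls of 20 G or C bases were also lower in the knockdown arrays, and the part of this in the values of the 3 genes was not tested.

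The promoters of these 3 genes are printed because their brightest probe sets were lower together. Each sequence is the 250 bases before a RefSeq start (GRCh38.p14), 5′ to 3′ on the gene's strand, with GC boxes (GGGCGG, either strand) in capitals. KCTD2 has 2 starts in the table.
KCTD17 (chr22:37051492-37051741, plus strand): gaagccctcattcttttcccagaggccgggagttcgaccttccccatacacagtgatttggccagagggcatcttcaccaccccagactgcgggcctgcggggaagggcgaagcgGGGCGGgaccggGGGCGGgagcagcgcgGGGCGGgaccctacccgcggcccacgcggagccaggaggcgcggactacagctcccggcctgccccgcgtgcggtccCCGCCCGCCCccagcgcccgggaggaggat
KCTD5 (chr16:2682273-2682522, plus strand): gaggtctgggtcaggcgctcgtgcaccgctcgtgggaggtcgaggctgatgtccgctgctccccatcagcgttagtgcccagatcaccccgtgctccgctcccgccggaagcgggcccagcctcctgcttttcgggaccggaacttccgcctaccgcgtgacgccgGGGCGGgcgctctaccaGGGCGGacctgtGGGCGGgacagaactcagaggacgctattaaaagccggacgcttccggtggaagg
KCTD2, first start (chr17:75032321-75032570, plus strand): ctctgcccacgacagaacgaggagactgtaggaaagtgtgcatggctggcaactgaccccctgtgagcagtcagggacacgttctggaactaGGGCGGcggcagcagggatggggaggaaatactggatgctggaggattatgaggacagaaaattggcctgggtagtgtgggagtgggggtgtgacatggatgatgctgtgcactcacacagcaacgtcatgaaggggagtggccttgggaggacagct
KCTD2, second start (chr17:75046975-75047224, plus strand): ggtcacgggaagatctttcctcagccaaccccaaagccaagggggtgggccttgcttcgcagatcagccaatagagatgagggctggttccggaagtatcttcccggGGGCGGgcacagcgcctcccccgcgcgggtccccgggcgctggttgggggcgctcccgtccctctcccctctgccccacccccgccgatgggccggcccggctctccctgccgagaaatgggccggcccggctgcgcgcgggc
KCTD17 held 5 GC boxes, of which 2 overlap on the opposite strand, KCTD5 held 3, and KCTD2 held 1 at each start. A GC box was found in 44 of the 84 receptor promoters (52.4%), which cover 61 of the 76 genes, and in 42.6% of all 35116 promoters of this length. Receptor promoters had a median of 63% G or C, against 58% over all. The CCAAT box (CCAAT) was found in 23.8% of receptor promoters and 32.0% of all, the TATA box (TATAAA) in 8.33% and 10.7%, and the E-box (CACGTG) in 3.57% and 6.34%, each on either strand. A match is a description of letters and not a site.

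Other KCTD genes with known roles stayed nearer to 0. KCTD10 and KCTD13 bring the GTPase RHOA to CUL3. KCTD10 read 2.63 and 1.89 in the shDCUN1D1 arrays, against 2.58 and 3.29 in the shGFP arrays (-0.68, SE 0.42), and the groups overlapped. KCTD13 read 1.66 and 2.27 in shDCUN1D1 and 1.51 in both shGFP arrays (0.45, SE 0.25). KCTD19, known from meiosis in the mouse testis, read 2.70 and 2.88 in shDCUN1D1 and 3.12 and 3.61 in shGFP (-0.58, SE 0.36), without overlap and not past the bound. The Hedgehog antagonists KCTD6 and KCTD21, which act on HDAC1, had log2 fold changes of 0.15 and 0.18. The GABA-B receptor subunits KCTD12 and KCTD16 had 0.07 and -0.05, and the AP-2 repressors KCTD1 and KCTD15 had 0.13 and -0.26.

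Among the Kelch receptors, KLHL18, which acts on Aurora A at mitotic entry, and KLHL21, which acts on Aurora B at the spindle midzone, lay on opposite sides of 0. KLHL18 read 2.28 and 3.20 in the shDCUN1D1 arrays, against 1.79 and 1.70 in the shGFP arrays (1.00, SE 0.37, bound 1.18). The groups did not overlap, but another of its 3 probe sets was separated the opposite way, at 1.46 and 1.43 in shDCUN1D1 and 1.80 and 2.25 in shGFP (-0.58). KLHL21 read 1.502 and 1.90 in shDCUN1D1 and 2.09 and 2.97 in shGFP (-0.83, SE 0.37, bound 1.05) on its 1 probe set. KLHL21 lay below the nonspecific control in every array. On the brightest probe set of KLHL18, only the second shDCUN1D1 value lay above it. KLHL9 and KLHL13, which work with KLHL21 on Aurora B, had log2 fold changes of -0.06 and -0.17. KLHL22, the receptor of PLK1, read 2.56 and 2.82 in shDCUN1D1 and 2.77 and 1.18 in shGFP (0.72, SE 0.56), where the second control array alone was low. It was past the bound, at 1.51, without the first control array.

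KLHL2 and KLHL3, the receptors of the WNK kinases of salt balance, had log2 fold changes of 0.46 and 0.18. KLHL2 read 2.28 and 2.33 in shDCUN1D1 and 1.73 and 1.96 in shGFP, without overlap (SE 0.22, bound 1.01). Each of these values lay below the nonspecific control of its array. KLHL12, known for the Wnt protein DVL and the coat protein SEC31A, had 0.15, and KLHL20, known for PML and DAPK1, had -0.10. KLHL25, a receptor of a translation repressor, had -0.05. None of these 5 was past the bound.

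The muscle genes KLHL40 and KLHL41, both mutated in nemaline myopathy, had log2 fold changes of -0.48 and 0.15. KLHL40 read 1.56 and 1.57 in shDCUN1D1 and 2.07 and 2.02 in shGFP (SE 0.17, bound 1.10), below the nonspecific control in all 4 arrays. KLHL31, another muscle gene, read 1.21 and 1.12 in shDCUN1D1 and 1.47 and 2.15 in shGFP (-0.65), and its other probe set gave 0.22. The groups of both genes did not overlap on these probe sets, at signals under the background.

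The 8 KBTBD genes lay closest together. KBTBD4, known from medulloblastoma, read 2.40 and 2.73 in shDCUN1D1 and 2.63 and 1.73 in shGFP (0.39, SE 0.39). KBTBD2, which controls the p85 subunit of PI3K, read 3.02 and 3.03 in shDCUN1D1 and 3.09 and 2.27 in shGFP (0.34, SE 0.39). Both overlapped, with the second control array low. KBTBD6 and KBTBD7, the joint receptor of the RAC1 exchange factor TIAM1, had 0.10 and 0.03, and KBTBD8, a neural crest regulator, had -0.24 (SE 0.13) without overlap.

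Among the BTBD genes, BTBD19 lay lowest and BTBD1 highest. BTBD19 read 2.47 and 2.55 in the shDCUN1D1 arrays, against 3.19 and 3.84 in the shGFP arrays (-1.002, SE 0.37, bound 1.19), just short of the bound of 1.2. Its other probe set gave 0.06. BTBD6, known from neuronal differentiation in the zebrafish, read 2.21 and 2.24 in shDCUN1D1 and 1.39 and 1.76 in shGFP (0.64, SE 0.22, bound 1.15), without overlap. All 4 BTBD6 values lay below the nonspecific control of their arrays. BTBD7, a regulator of branching in the mouse salivary gland, read 3.86 and 4.54 in shDCUN1D1 and 3.97 and 3.69 in shGFP (0.37, SE 0.47), with overlap. KCTD20 at 1.22 stood just inside the bound and BTBD19 just outside it.

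The highest log2 fold change of any receptor, that of KLHL5, came from a single array. KLHL5 read 4.33 and 1.15 in the shDCUN1D1 arrays, against 1.48 and 1.10 in the shGFP arrays (1.45, SE 1.05). Its 4 other probe sets lay between -0.13 and 0.05. BTBD1, a partner of topoisomerase 1, read 4.29 and 1.58 in shDCUN1D1 and 1.46 and 1.98 in shGFP (1.22, SE 0.92). KLHL7, a retinal disease gene, read 3.53 and 1.70 in shDCUN1D1 and 1.37 and 1.94 in shGFP (0.96, SE 0.65). In all 3 genes the second knockdown array lay among the control arrays. They are the receptors that were over 1 log2 unit above each other array in the first knockdown array, which is 3.95% of receptors, against 8.17% of all genes. BTBD2, the paralogue of BTBD1, read 2.20 and 2.81 in shDCUN1D1 and 2.74 and 2.89 in shGFP (-0.31, SE 0.33).

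Probe sets of 1 receptor often differed. Of the 50 receptors with several probe sets, 24 had all of 1 sign and 26 had mixed signs. The mean over the probe sets had the opposite sign to the brightest in 4 and was opposite or over 1.5 times smaller in 32. When each of the 40914 probe sets was tested, 1455 (3.56%) were past the bound, and so were 5 of the 168 receptor probe sets (2.98%): 2 of KCTD20 and 1 each of ENC1, KCTD17 and KCTD5.

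**Figure D4:**
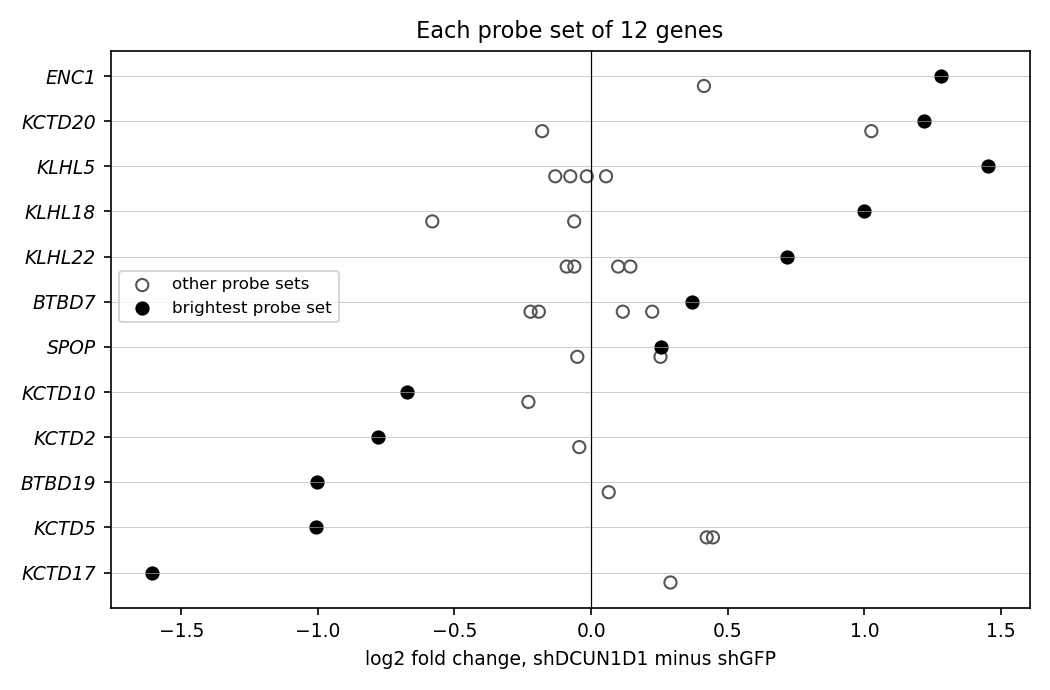
Log2 fold change (shDCUN1D1 minus shGFP) of each probe set of 12 receptors, with the brightest filled and the others open and set slightly lower. ENC1 and KCTD20 have a further probe set above 0, whereas the other probe sets of KCTD5 and KCTD17 lie above 0 and opposite to the brightest. KLHL5, KLHL22 and KCTD10 were added after their values were seen.

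The rest of the ligase was measured by genes of the CUL3 core. They comprise the cullin, the RING protein, NEDD8 and its enzymes, E2 enzymes and the COP9 signalosome that removes NEDD8. The list also holds CAND1, CAND2, GLMN, ARIH1 and the DCUN1D genes, with the targeted DCUN1D1 among them. CUL3 read 9.30 and 9.27 in the shDCUN1D1 arrays, against 9.11 and 8.98 in the shGFP arrays (0.24, SE 0.30), and its 2 dimmer probe sets gave 0.54 and -0.23. RBX1, the RING protein, read 6.80 and 7.03 in shDCUN1D1 and 7.28 and 7.03 in shGFP (-0.24). Past the bound among the 27 core genes measured were 2 higher and 1 lower, against 1.57% and 3.64% of all genes. Higher were the signalosome subunit COPS4 (0.94) and the E2 enzyme UBE2R2 (2.15), and lower was the signalosome subunit GPS1 (-1.35). Without the first knockdown array the core median of 0.37 was 0.01 and 1 core gene was higher (all genes 3.59%), whereas 8 were higher without the second knockdown array (all genes 11.4%), 1 without the first control array (all genes 1.41%) and 0 without the second (all genes 0.197%). The mean over probe sets was 0.39 for COPS4, which was above background in no array, and 0.99 for UBE2R2. NEDD8 read 5.75 and 3.26 in shDCUN1D1 and 3.22 and 2.70 in shGFP (1.54, SE 0.90), not past the bound.

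Among 26 other BTB proteins outside the symbol rule, 0 were higher and 2 lower past the bound (all genes 1.57% and 3.64%). ARMC5, itself a CUL3 receptor, read 2.96 and 2.44 in the shDCUN1D1 arrays, against 4.57 and 4.88 in the shGFP arrays (-2.03). The transcriptional corepressor NACC1 read 3.78 and 2.64 in shDCUN1D1 and 4.86 and 6.33 in shGFP (-2.38). The groups overlapped for neither gene. The mean over the 2 probe sets of NACC1 was -1.15. Without the first knockdown array 2 of these genes were higher (all genes 3.59%), without the first control array 3 were lower (all genes 4.67%), and without the second control array 1 was lower (all genes 1.73%). The median of these genes was -0.05.

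Among 43 measured substrates of the receptors, 3 mRNAs were higher and 2 lower past the bound (all genes 1.57% and 3.64%). Their median was 0.15. NFE2L2, which encodes NRF2, read 4.45 and 2.45 in the shDCUN1D1 arrays, against 1.89 and 1.63 in the shGFP arrays (1.69), and its 3 other probe sets lay between -0.38 and 0.58. Of these NFE2L2 readings, only that of the first knockdown array (4.45) lay above the nonspecific control of its array. SETD2, a histone methyltransferase and SPOP substrate, had 0.88, with a mean over its 3 probe sets of 0.24. TRIM24, an SPOP substrate, read 2.63 and 2.30 in shDCUN1D1 and 4.01 and 4.43 in shGFP (-1.75), with a mean over its 3 probe sets of -0.31. The corepressor RCOR1 had -0.94, with a mean over its 2 probe sets of -0.21. The count of 3 higher mRNAs was 10 without the second knockdown array, where 11.4% of all genes were higher, 2 without the first control array and 0 without the second, and with any 1 array left out 1 mRNA was lower. These are mRNA levels, while the receptors act on the proteins.

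Target genes of NRF2 had a median log2 fold change of 0.91 over 24 measured genes, against -0.01 over all genes. On the mean of each gene's probe sets this median was 0.38. Past the bound were 2, both higher (all genes 1.57%): AKR1C1 (1.45, mean over probe sets 0.66) and AKR1C2 (2.04, mean 1.28). They are near-identical paralogues of steroid metabolism whose probes may share signal. NQO1, a quinone reductase, read 6.36 and 2.29 in the shDCUN1D1 arrays, against 1.83 and 1.39 in the shGFP arrays (2.71, SE 1.35). TXN, which encodes thioredoxin, read 8.48 and 1.93 in shDCUN1D1 and 1.85 and 1.82 in shGFP (3.37, SE 2.14). These values rest on the first knockdown array: the median was 0.05 without it and 1.85 without the second, with 1 gene higher without the first (all genes 3.59%) and 13 without the second (all genes 11.4%). Without either control array 0 were higher, and the median was 0.52 without the second. Neither NQO1 nor TXN was past the bound.

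Markers of other cell types were counted in the same way, beside 1.57% of all genes higher and 3.64% lower past the bound. Past the bound were 0 of 3 luminal prostate, 0 of 4 endothelial and 0 of 4 leukocyte markers, and 1 of 6 fibroblast markers, PDGFRB, at 2.67 and 2.24 in shDCUN1D1 and 3.46 and 3.47 in shGFP (-1.01). PDGFRB was past the bound without the first knockdown array and not without any other array. The endothelial and leukocyte markers lay above the nonspecific control in no array. Above it in any array were 2 of the 3 luminal prostate and 2 of the 6 fibroblast markers, against 2 of the 5 epithelial markers.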

How the data were processed

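The 4 samples, 2 of shDCUN1D1 and 2 of shGFP cells, were each hybridised to an Affymetrix array with 1 label. The deposited table holds log2 signals made by the authors, with a value for each probe set and array. The tool is Affymetrix Expression Console in the submitters' processing notes but dChip in the methods, and the choice between them stays unsettled. The methods also name another array than the one the probe sets belong to. No detection calls were used. An array has no read depth, and 2 arrays a group with mostly low signal limit the precision.

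Of 54715 probe sets, 40914 name 1 gene through the platform annotation, of which 40858 matched RefSeq (GRCh38.p14) by gene ID. Probe sets naming several genes (864) or none (12835), and 102 controls, were left out. Of 83 protein-coding RefSeq genes that fit the symbols, 7 had no probe set naming them alone and were not analysed here. The probe set that was brightest on average in the 4 arrays stood for its gene. All 19774 genes were fitted with limma (version 3.58.1, R 4.3.3), using a trended variance and adjusting p by Benjamini-Hochberg. The fold bound follows the paper's rule but uses limma's moderated standard error. Where records do not show separate cultures, p-values measure the spread between these arrays, which may be technical. The fits were tested on simulated arrays.

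Named were KEAP1, SPOP, SPOPL, ENC1, receptors past the bound, the 8 with the highest mean signal and, per direction, the 4 with the largest change whose groups did not overlap. Others are named for their role, or were chosen after their values were seen (KLHL5, KLHL7, BTBD1, KLHL22, KLHL2, KLHL40 and KLHL31). The members and the lists of core, other BTB, substrate, NRF2 target and marker genes were chosen with earlier results of these data known, and no list was tested. Samples were grouped by title. A result for 1 substrate and a promoter sequence are not reported here. The alternatives were quantile normalization, median centring, filters on signal, the mean of probe sets, the brightest probe set in controls, no variance trend, a robust variance, a replicate block, stricter bounds, unmoderated errors, the methods' t-test and leaving out each array.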

Additional observations from a re-analysis of the deposited data

How the results depend on the processing

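Against 2 receptors higher and 2 lower past the fold bound, median centring and a robust variance gave 2 and 2, with the same 4 genes. Quantile normalization gave 0 higher and 2 lower (all genes 1.59% and 3.81%). The filter to genes above the median signal gave 1 and 2 of 40 receptors (all genes 2.40% and 6.37%). The mean of probe sets gave 1 and 0 (all genes 0.870% and 2.08%), and no variance trend 2 and 4 (1.78% and 4.61%). Unmoderated standard errors gave 1 and 3 (all genes 0.895% and 3.40%). A 90% bound over 1.5 gave 0 and 0 (all genes 0.430% and 1.29%). A 95% bound over 1.2 gave 0 and 1, KCTD5 (all genes 0.627% and 2.04%). The filter to genes above the nonspecific control kept a gene that was above it in both arrays of either group. It gave 2 and 2 of 12 receptors, where 6.67% and 10.7% of all genes were past the bound. Among those receptors past the bound, 3 were the same genes. ENC1 and KCTD20 passed the filter only through shDCUN1D1, and BTBD19 only through shGFP. Such a gene is kept by its high group, so these calls are no independent check. This filter moved the median of the receptors to 0.26 and of all genes to 0.14. The control itself read lower in the knockdown arrays. The brightest probe set in controls gave 2 and 3 (all genes 1.29% and 4.33%). Leaving out 1 array gave 0 to 5 higher and 0 to 4 lower, against 39 to 2253 and 343 to 923 of all genes (11.4% higher without the second knockdown array, where 5 receptors were). Of the 4 genes 0 stayed without the first knockdown array, 3 without the second, 2 without the first control array and 1 without the second. Receptor probe sets past the bound numbered 5, and 3 with quantile normalization, 0 with a bound over 1.5, 1 with a 95% bound, and 1 to 12 without 1 array.

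The replicate block gave 1 receptor higher and 2 lower, without ENC1, against 1.78% and 2.61% of all genes, and 1 probe set. Deviations of same-numbered arrays correlated at -0.04, and with 2 pairs the numbers were not taken as pairing. Limma's adjusted p called 0 receptors under each alternative with a limma fit, except 3 without the second knockdown array (0 to 3 over the arrays left out). There 7.30% of all genes were called, and the lone array is assumed to vary as the controls do. The methods' t-test gave 4 before adjustment (7.55% of all genes) and 0 after. Reversed were KEAP1 without the second knockdown array (0.061), SPOP with quantile normalization (-0.036) and without the second control array (-0.51, against 1.01 without the first), and KLHL18 by its brightest probe set in controls (-0.58). The causes were not tested. Of 187 values of 14 named receptors under the alternatives, 156 kept direction and side of the bound. Another 19 fell short of it and 8 newly passed it. All 19 were values of ENC1, KCTD20, KCTD17 and KCTD5, since only a receptor past the bound could fall short. The stricter bounds are not among the 187 values, so the 156 are no measure of how stable those 4 calls were. The low signal limits what these arrays can show, since most receptors lay under the nonspecific control.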
